A study of Mus musculus with 12 samples.

Results

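Myocardial infarction (MI) was compared with sham surgery in the left ventricle of mice that lack the long noncoding RNA Miat. The 6 arrays labelled as knockout left ventricle, 3 after MI and 3 after sham surgery, were taken from the 12 arrays of the study. Of 60930 probes on the array, 51700 were tested, those well above background on every array of at least 1 of these groups. A further 9215 probes were too dim, and 15 negative-control probes were left out.

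MI kills heart muscle cells in the territory of the blocked vessel. The lost muscle is replaced by a scar built by fibroblasts, immune cells enter the wound, and the surviving muscle remodels over weeks. Miat (myocardial infarction associated transcript) takes its name from a human association study of infarction and is a nuclear long noncoding RNA of muscle and nerve tissue.

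The study profiled male C57BL/6J mice, either wild type or with Miat lost throughout the body, 4 weeks after MI or sham surgery. The 3 knockout MI mice were 16 weeks old at harvest, and the knockout sham mice were 16, 15 and 15 weeks old (replicates 1, 2 and 3). The wild-type mice, which serve here as a second pair of groups of 3, were 14, 13 and 13 weeks old after MI and 14, 14 and 13 weeks old after sham surgery. Every array holds the RNA of 1 ventricle, described in the labels as an independent biological replicate. Because the loss of Miat is systemic, the labels tie it to no cell type.

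No probe used here was paired with Miat or with genes that define heart muscle, fibroblasts or immune cells. The knockout labels and the tissue were therefore not checked against such genes. In whole tissue, fewer cells of a type and less RNA per cell cannot be told apart. The scan dates split the arrays into 2 scan groups, called slide 1 and slide 2 here. The physical slides were not identified. The knockout MI arrays and sham replicates 2 and 3 shared slide 1, while knockout sham replicate 1 was on slide 2. From 82.6% to 88.1% of an array's spots, control spots left out, were well above background and none was saturated. Precision was limited by the number of arrays.

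The first question was whether any transcript differed between MI and sham ventricles without Miat. Values are log2 of the processed spot signal minus the array's 75th percentile, and a difference of 1 is a 2-fold change. None of the 51700 probes was called, which means an adjusted p under 0.05 in limma, and the smallest adjusted p was 0.384. The background of calls was therefore 0%. At an unadjusted p under 0.05, 4878 probes (9.44%) passed in limma, against 2585 if p-values were spread evenly. Of these, 1888 (3.65%) were higher and 2990 (5.78%) lower after MI. Counts at stricter unadjusted limits were also above an even spread, with 1241 probes under 0.01 against 517 and 111 under 0.001 against 52. A plain equal-variance test on the 6 knockout arrays also called 0 probes, with 4841 at an unadjusted p under 0.05.

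The count of 0 calls changed with the arrays in the fit and with array weights. Leaving out a knockout array or weighting the arrays moves the differences as well as the spread. A fit of the 6 knockout arrays alone called 1 probe, ASMM10P042126, and a fit without wild-type MI replicate 1 called the same probe. A fit without knockout MI replicate 1 called 2 others, ASMM10P036813 and the human-named lincRNA probe humanlincRNA1318-_P1, which were named here after their values were seen. For humanlincRNA1318-_P1 the MI arrays read -1.96, -0.36 and -0.56 and the sham arrays -2.25, -2.07 and -2.16. All MI arrays lay above all sham arrays, and replicate 1 lay nearest to them. Array weights raised the count to 3407 (939 higher and 2468 lower). These weights ran from 0.162 to 6.32 and gave knockout sham replicate 2 the weight of 6.32 and knockout sham replicate 1 a weight of 0.29.

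The sizes of the differences were small for most probes. The median absolute difference between MI and sham means was 0.14 in the knockout and 0.31 for the same probes in wild type, on arrays that the comparisons do not share. The SD of the differences over probes was 0.27 in the knockout and 0.55 in wild type, while the root mean square of their standard errors was 0.22 in both. Means differed by over 2-fold for 360 knockout probes (0.696%), 275 higher and 85 lower after MI. In wild type 3718 probes (7.19%) did so, and 13691 (26.5%) were called in limma. All wild-type MI arrays were on slide 1 and all wild-type sham arrays on slide 2. The wild-type values therefore hold slide as well as surgery, and the 2 cannot be told apart.

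**Figure D1:**
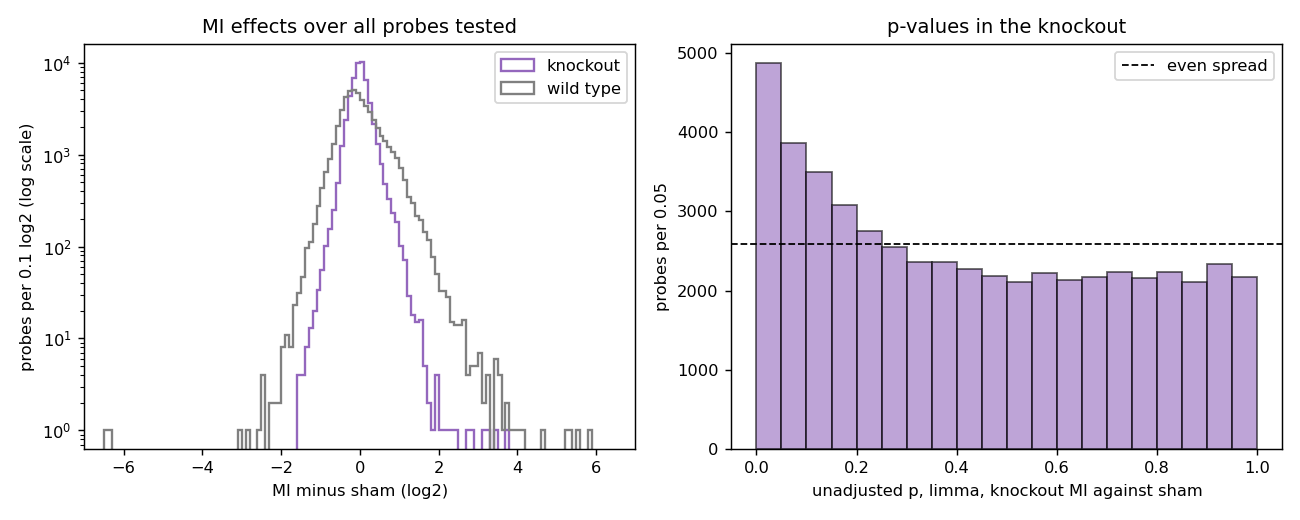
The left panel plots, on a log count axis, how many of the 51700 probes had each difference between the MI and sham means (log2) in the knockout and in wild type, 3 arrays a group. The right panel plots the unadjusted limma p-values of the knockout comparison in steps of 0.05 against an even spread; the first bar holds 4878 probes and the even spread 2585.

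The probes past 2-fold in the knockout were imprecise. The 275 higher probes had a median 95% interval half-width of 1.15 on the log2 scale, and 150 of them had an unadjusted p under 0.05. Against the sham mean, 194 of them were over 2-fold higher on MI replicate 1, 105 on replicate 2 and 214 on replicate 3. Only 27 were so on all 3 MI arrays. Of the 85 lower probes, 57, 33 and 78 were over 2-fold lower on replicates 1, 2 and 3, and 18 on all 3. MI replicate 2 thus held the fewest in both directions. Within slide 1, 241 of the 275 and 70 of the 85 were past 2-fold in the same direction. These values reuse the arrays that selected the probes, apart from sham replicate 1, so much of this overlap is built in.

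The array names 15 genes through transcript accessions, each with 20 spots, and they are of the kind used as housekeeping controls. None of the 15 was called in the knockout, where the background was 0%. The MI mean was higher for 6 and lower for 9, although 7 signs turned under quantile normalization, with a median difference of -0.06 against 0.00084 over all probes. Their median absolute difference was 0.14, as it was over all probes. The arrays of both groups did not overlap for 2 of the 15, against 16.8% of all probes. Gapdh was lower without overlap, as were 9.3% of all probes, and Tbp was higher without overlap, as were 7.51%. For 14 of the 15, the 95% interval of the difference excluded a 2-fold change in either direction.

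**Figure D2:**
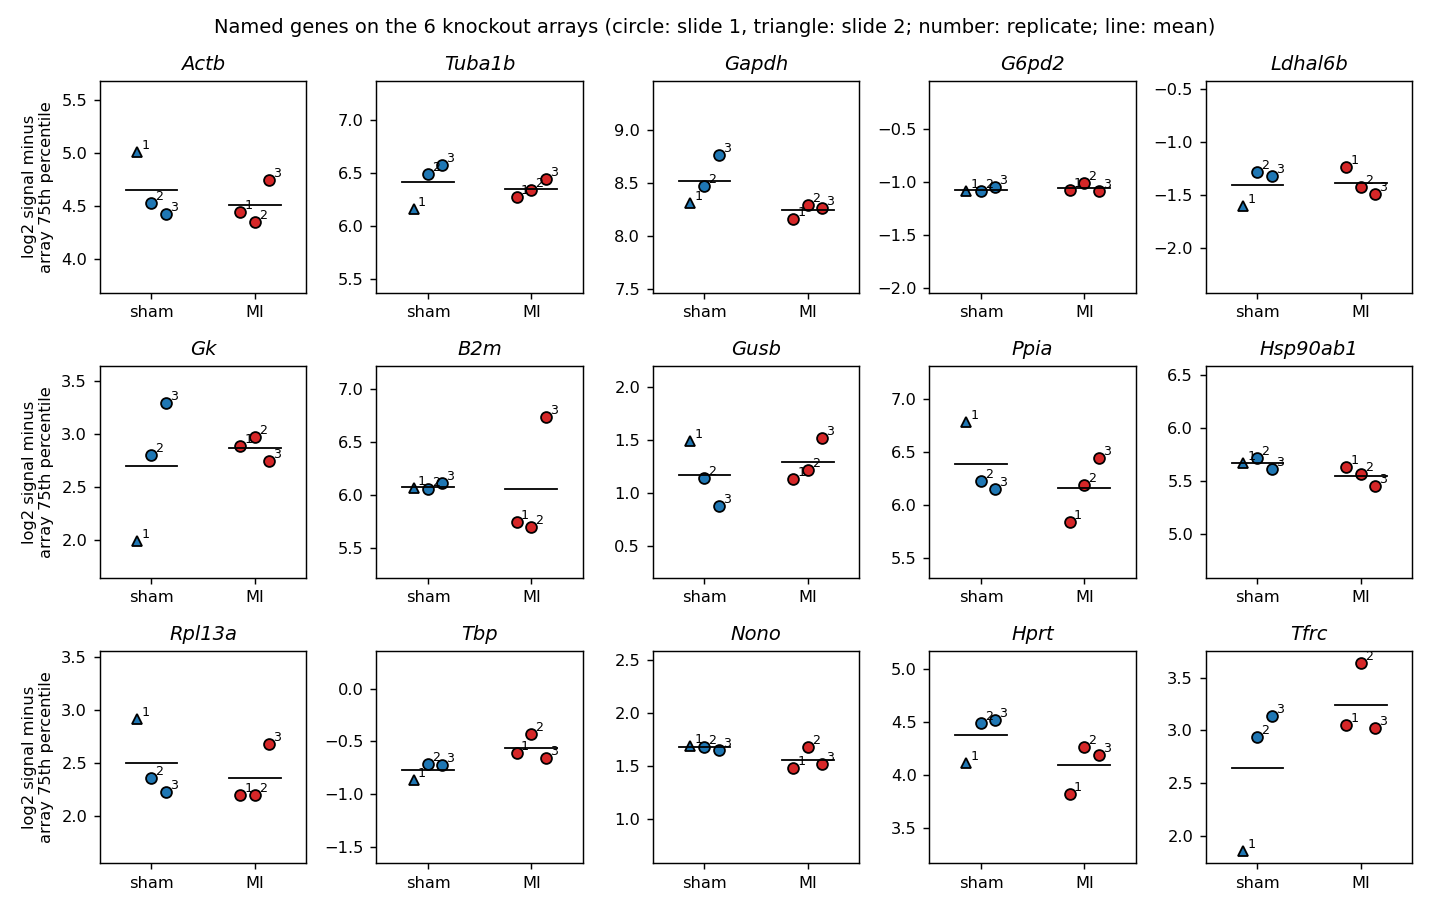
Each panel plots 1 named gene on the 6 knockout arrays, sham in blue and MI in red, as log2 signal minus the array's 75th percentile; every panel spans 2 log2 units, the line is the group mean, circles are slide 1 and the triangle is sham replicate 1 on slide 2. Gapdh and Tbp are the panels without overlap, and sham replicate 1 stands apart from the other sham arrays in several panels, Tfrc and Gk among them.

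The cytoskeletal genes came first. Actb, which encodes beta-actin of the cell cortex, read 4.45, 4.35 and 4.75 after MI and 5.01, 4.53 and 4.43 after sham surgery. Sham replicate 1 was the highest of the 6 arrays, and the groups overlapped. The difference was -0.14 ± 0.21 (SE, 3 arrays a group, adjusted p 0.875 in limma), and 0.035 within slide 1. Quantile normalization and the authors' values also gave the opposite sign.

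Tuba1b, an alpha-tubulin of microtubules, read 6.27, 6.35 and 6.44 after MI and 6.17, 6.50 and 6.58 after sham surgery. The MI arrays lay between the lowest sham array, replicate 1, and the other sham arrays. The difference was -0.06 ± 0.15 (SE, adjusted p 0.942 in limma), with a 95% interval of -0.40 to 0.28 and an opposite sign under quantile normalization. Whether its probe also binds related tubulin transcripts was not tested.

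Gapdh, a glycolytic enzyme, had the smallest p of the 15. It read 8.16, 8.30 and 8.27 after MI and 8.32, 8.47 and 8.77 after sham surgery. All MI arrays lay below all sham arrays, although MI replicate 2 and sham replicate 1 differed little. The difference was -0.28 ± 0.12 (SE, unadjusted p 0.0447 and adjusted p 0.519 in limma), and -0.38 within slide 1. It was 0.043 under quantile normalization, so its sign rests on the scaling. Control spots for the same gene, kept outside the tested probes, differed by -0.27 for the 3′ probe and -0.29 for the 5′ probe, with exact permutation p of 0.3 and 0.2 (two-sided, smallest possible 0.1). These spots share the arrays and the scaling with the named probe.

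The control spots also carry Pgk1, a later enzyme of glycolysis. Its 3′ probe averaged 5.88 ± 0.12 (SD, n = 3) after MI and 6.06 ± 0.17 after sham surgery, a difference of -0.19 (exact two-sided permutation p 0.3). The 5′ probe differed by -0.023 (exact permutation p 0.8). The gap between the 3′ and 5′ probes differed between MI and sham by 0.018 for Gapdh (exact permutation p 1). For Pgk1 the gap differed by -0.16 (exact permutation p 0.3). RNA integrity was not tested.

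Gk, the glycerol kinase that links glycerol to lipid and sugar metabolism, read 2.89, 2.97 and 2.75 after MI and 1.99, 2.80 and 3.29 after sham surgery. The MI arrays lay close together inside the range of the sham arrays. The difference was 0.17 ± 0.26 (SE, adjusted p 0.878 in limma) over 6 arrays and -0.18 within slide 1, where sham replicate 1 is absent.

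G6pd2 and Ldhal6b, retrogene relatives of glucose-6-phosphate dehydrogenase and lactate dehydrogenase A known from testis, differed by 0.016 ± 0.079 and 0.019 ± 0.11 (SE). Both signs turned under quantile normalization. G6pd2 had the smallest SE of the 15, with an SD of 0.044 after MI and 0.02 after sham surgery. Whether their probes bind the parent genes' transcripts was not tested.

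Among immune and lysosomal genes, B2m, the light chain of class I histocompatibility molecules, read 5.75, 5.70 and 6.74 after MI and 6.07, 6.06 and 6.12 after sham surgery. MI replicate 3 lay above and the other MI arrays below the narrow sham range. The SD was 0.59 after MI and 0.032 after sham surgery, and the difference was -0.021 ± 0.27 (SE, adjusted p 0.991 in limma). Without MI replicate 3 it was -0.36, and without MI replicate 1 or 2 it had the opposite sign.

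Gusb, a lysosomal beta-glucuronidase, read 1.13, 1.22 and 1.52 after MI and 1.50, 1.14 and 0.88 after sham surgery. The groups overlapped, and the difference was 0.12 ± 0.21 (SE, adjusted p 0.903 in limma).

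Of the protein-folding genes, Ppia, the prolyl isomerase cyclophilin A, read 5.84, 6.19 and 6.44 after MI and 6.78, 6.22 and 6.15 after sham surgery. The highest array was again sham replicate 1. The difference was -0.23 ± 0.21 (SE, adjusted p 0.758 in limma) over 6 arrays and -0.029 within slide 1. Hsp90ab1, the constitutive cytosolic chaperone, differed by -0.12 ± 0.11 (SE, adjusted p 0.76 in limma), and its sign turned under quantile normalization.

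Among genes of transcription, translation and purine salvage, Tbp, the TATA-binding protein, read -0.61, -0.43 and -0.66 after MI and -0.86, -0.72 and -0.72 after sham surgery. All MI arrays lay above all sham arrays. The difference was 0.20 ± 0.092 (SE, unadjusted p 0.0518 and adjusted p 0.532 in limma), 0.15 within slide 1, and positive in all 29 alternatives. Many of these, such as filters on dim probes, eBayes options and leaving out a wild-type array, cannot move a difference of knockout means. For Tbp the wild-type difference was -0.18, and the difference between both effects was not called (0.38, 95% interval 0.091 to 0.67).

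Hprt, the purine salvage enzyme, read 3.82, 4.27 and 4.20 after MI and 4.12, 4.50 and 4.52 after sham surgery. MI replicates 2 and 3 lay between sham replicate 1 and the other sham arrays. The difference was -0.28 ± 0.18 (SE, adjusted p 0.62 in limma) and -0.41 within slide 1. It was negative in all 29 alternatives, many of which cannot move it. The RNA-binding protein gene Nono differed by -0.11 ± 0.099 (SE). Rpl13a, which encodes a ribosomal protein, differed by -0.15 ± 0.19 (SE). The sign held for Nono in all 29 alternatives, with the same limit, and turned for Rpl13a within slide 1.

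Tfrc, the transferrin receptor for iron uptake, was the gene with the widest interval. It read 3.05, 3.64 and 3.02 after MI and 1.86, 2.93 and 3.13 after sham surgery. Sham replicate 1 lay more than 1 log2 unit below every other knockout array, sham replicate 2 lay just below the MI arrays, and sham replicate 3 lay among them. The difference was 0.60 ± 0.46 (SE, adjusted p 0.696 in limma) with a 95% interval of -0.43 to 1.62, and 0.20 within slide 1. This was the only named gene whose interval reached past 2-fold.

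Sham replicate 1 was the highest sham array for Actb, Ppia, Rpl13a, Gusb and Nono and the lowest for Tuba1b, Gk, Tfrc, Hprt, Gapdh, Tbp, Ldhal6b and G6pd2. For B2m and Hsp90ab1 it lay between the other sham arrays. It is also the sham array of slide 2 and the sham mouse aged 16 weeks, so array, slide and age cannot be told apart. Within slide 1, the sign of the MI difference turned for 4 of the 15 genes, Actb, Gk, Ldhal6b and Rpl13a. The 20 spots of a gene on 1 array agreed closely, with a median SD of 0.027 to 0.064. The largest standard error of an array's mean from its spots was 0.023.

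The remaining probes carry design IDs with no gene name. The 4 given here are those with the smallest p, 2 in each direction, among probes whose groups do not overlap and that were well above background on all 6 knockout arrays or on all 3 of the brighter group. Where a group was not well above background, the fold is a lower bound. It sets the mean of the brighter group against the lowest signal well above background on each dim array, or the probe's own signal where that was higher. These bounds hold for the scanner's own background subtraction. With normexp background correction the log2 differences were 0.48 for ASMM10P042126, 0.18 for ASMM10P022952 and -0.46 for ASMM10P012959, all smaller than the bounds. That correction adds an offset of 50 to every signal, which by itself narrows the log2 differences of dim probes.

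ASMM10P042126 read -3.38, -3.94 and -3.42 after MI and -6.95, -6.94 and -6.76 after sham surgery. It was well above background on all 3 MI arrays and on none of the sham arrays, and was at least 1.99-fold higher after MI (adjusted p 0.384 in limma, 0.00359 to 0.697 over its 28 alternatives). In wild type it was at least 9.50-fold higher after MI and was called. It read -2.46, 0.033 and -0.90 on the wild-type MI arrays, all above every knockout MI array, but the difference between both effects was not called (adjusted p 0.074 in limma).

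ASMM10P022952 read -3.51, -4.38 and -4.34 after MI and -6.09, -5.78 and -6.76 after sham surgery, where no array was well above background. It was at least 1.40-fold higher after MI (adjusted p 0.409 in limma). On the wild-type arrays it was never well above background. Its difference between both effects was not called (adjusted p 0.0534 in limma).

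ASMM10P012959 read -5.16, -4.65 and -5.32 after MI and -3.93, -3.79 and -3.59 after sham surgery. No MI array was well above background, and the probe was at least 1.67-fold lower after MI (adjusted p 0.384 in limma). It was not well above background in wild type after either surgery.

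ASMM10P028160 was bright on all 6 knockout arrays. It read 6.82, 6.66 and 6.94 after MI and 7.50, 7.45 and 7.65 after sham surgery. Every MI array lay more than 0.5 below every sham array. The difference was -0.73 ± 0.10 (SE, 95% interval -0.95 to -0.50, adjusted p 0.384 in limma), and -0.74 within slide 1. Over its 29 alternatives it ran from -0.792 to -0.46, so its size moved with the processing. The smallest size, -0.46, came from quantile normalization, while the processed values of the authors gave -0.461. Both lie outside the 95% interval. In wild type the difference was -0.88 and was called. The effects differed by 0.16 (95% interval -0.16 to 0.48).

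Probe classes, read from the wording of the IDs, held 0 calls each. An unadjusted p under 0.05 was reached in limma by 9.53% of 50337 probes with ASMM IDs and 6.96% of 805 human-named lincRNA probes. The shares were 4.64% of 474 mouse-named lincRNA probes and 4.35% of 69 lincRNA exon probes. All probes together gave 9.44%. Median differences of the classes lay between -0.030 and 0.025, apart from the 15 named genes.

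Few transcripts crossed the detection limit between the groups. Of the 51700 tested probes, 50101 were well above background on all 6 knockout arrays. Another 902 were so on all 3 MI arrays but not on every sham array, and 697 the other way round. In the knockout, 33 probes were well above background on all 3 MI arrays and on no sham array, and 42 the other way round. In wild type, where MI and sham arrays were on different slides, the counts of all against none were 359 and 60.

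The distance between 2 arrays was taken as the median absolute log2 difference over the tested probes. The 9 pairs of an MI and a sham knockout array averaged 0.203, with a range of 0.163 to 0.259. The 6 pairs within a group averaged 0.18, with a range of 0.127 to 0.262. The gap of 0.0227 had an exact two-sided permutation p of 0.1, the smallest that 3 against 3 arrays allow. On the 5 arrays of slide 1 the gap was 0.0316 (exact permutation p 0.2, smallest possible 0.1). Without knockout MI replicate 1 it was 0.00268, and without MI replicate 3 it was 0.0113. In wild type, pairs of an MI and a sham array, all across slides, averaged 0.336. Pairs of wild-type MI arrays averaged 0.254 and pairs of wild-type sham arrays 0.118, all within a slide.

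**Figure D3:**
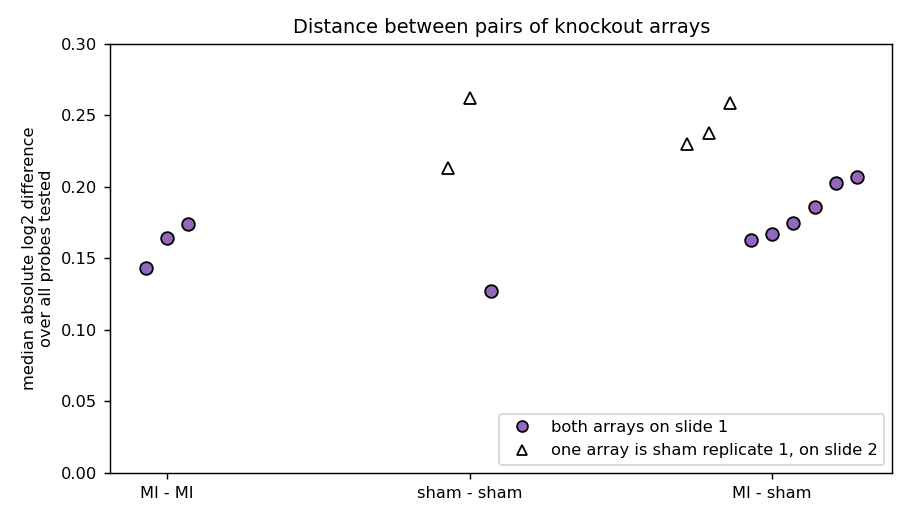
Each point is the median absolute log2 difference between 1 pair of knockout arrays over the tested probes, by kind of pair; filled circles are pairs within slide 1 and open triangles are pairs with sham replicate 1. All 5 pairs with sham replicate 1 lie at 0.213 or more, above every pair within slide 1.

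Sham replicate 1 was the array farthest from the rest. Its distances to the other sham arrays were 0.213 and 0.262, and to the MI arrays 0.23 to 0.259. Sham replicates 2 and 3 were the closest pair, at 0.127. Against the mean of those replicates, sham replicate 1 was over 2-fold away at 2100 probes, and MI replicates 1, 2 and 3 at 2252, 643 and 1646. A single sham array thus departed from the slide 1 sham arrays at about as many probes as the most distant MI array did.

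The first principal component of the 6 arrays held 37.4% of the variance and did not order them by surgery. The second, with 28.5%, put the MI arrays at 38.3, 8.01 and 34.6 and the sham arrays at -58.8, -16.4 and -5.75, without overlap. MI replicate 2 and sham replicate 3 were neighbours on it.

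The same split of the MI arrays was seen at the probes called in wild type. Their wild-type differences come from other arrays, while the filter and the pooled spread also use the knockout arrays. The shift was the median over the 6461 probes called higher in wild type minus that over the 7230 called lower, both relative to the knockout sham mean. It was 0.154, -0.117 and 0.342 on MI replicates 1, 2 and 3. On the sham arrays, which average near 0 by construction, it was 0.115, 0.0324 and -0.147. On these values MI replicate 2 lay inside the sham range, MI replicate 1 just above it and MI replicate 3 well above it. Each sham array is part of the mean it is set against, which narrows the sham range. MI replicate 1 therefore cannot be placed above that range with certainty.

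The median SD between replicates over the tested probes was 0.139 after MI and 0.166 after sham surgery in the knockout. Without sham replicate 1 the sham value was 0.0898. The wild-type values were 0.212 after MI and 0.104 after sham surgery. An SD over 0.5 was found for 6.81% of probes in knockout MI and 7.66% in knockout sham.

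Precision sets what the lack of calls can show. The 95% interval of the MI difference had a median half-width of 0.35 on the log2 scale, a factor of 1.27, and ran from 0.23 at the 10th percentile to 0.72 at the 90th. For 45456 probes (87.9%) the interval excluded a 2-fold change in both directions. For the remaining 6244 it reached past 2-fold, so a change of that size was not excluded there. The median half-width was 0.39 in the dimmest of 3 equal sets of probes, 0.31 in the middle and 0.35 in the brightest. The share with an unadjusted p under 0.05 was 7.9%, 6.45% and 13.9% in the same order.

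Power was computed from each probe's standard error and the noncentral t distribution. At an unadjusted p of 0.05, the median probe had a power of 82.1% for a true log2 difference of 0.5 and 100% for differences of 1 and 2. At 9.67e-07, which is 0.05 divided by the number of probes, the power was 0.114%, 7.22% and 89.8% for these sizes. The share of probes with at least 80% power at that limit was 1.01% for a 2-fold and 57.5% for a 4-fold change. This limit is stricter than the adjustment used for calls, so these are low estimates of the power to make a call. For the named genes, power for a 2-fold change at an unadjusted p of 0.05 was lowest for Tfrc, at 50.2%, with a median of 99.9%.

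**Figure D4:**
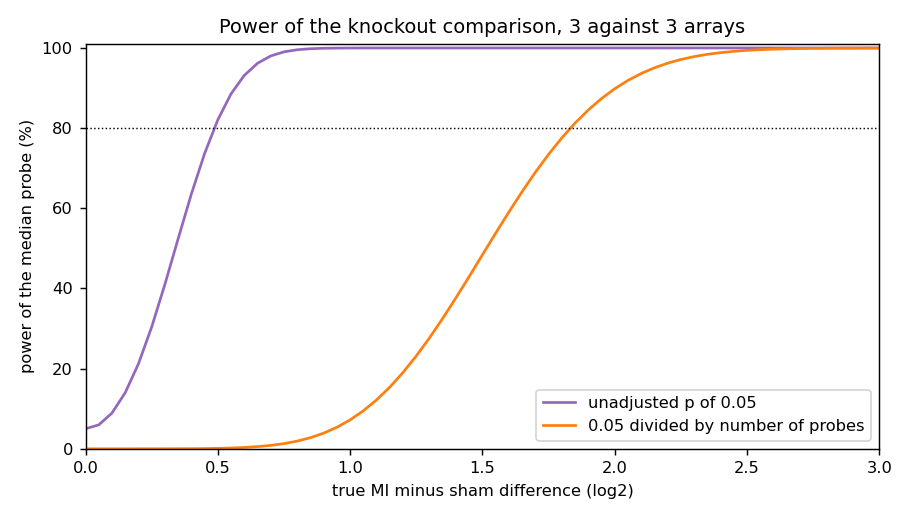
The curves plot the power of the median probe, in percent, against the true difference between MI and sham (log2) with 3 arrays a group, at an unadjusted p of 0.05 and at 0.05 divided by the number of probes. At a difference of 1 they stand at 100% and 7.22%, and the dotted line marks 80%.

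The knockout effect was also set against the wild-type effect, by the test of their difference in the same fit. This difference was called for 1943 probes (3.76%), 848 positive and 1095 negative. Among the named genes, 3 of 15 were called, all negative, as were 2.12% of all probes. For Ppia the difference was -1.42 ± 0.30 (SE, adjusted p 0.0377 in limma), from an MI effect of -0.23 in the knockout and 1.20 in wild type. For Actb it was -1.37 ± 0.30 (adjusted p 0.041), from -0.14 and 1.23. For Tuba1b it was -0.92 ± 0.22 (adjusted p 0.0465), from -0.06 and 0.86. Adjusted p ranged over 26 alternatives from 0.00814 to 0.134 for Ppia, 0.00769 to 0.146 for Actb and 0.00747 to 0.199 for Tuba1b. None of the 3 passed under quantile normalization, in the authors' values, without a filter on dim probes or with age as a covariate. Tuba1b also lost the call with slide as a term (-0.67, adjusted p 0.107 in limma) and with slide as a random block (adjusted p 0.0548). The slide term is set by knockout sham replicate 1 against the other knockout sham arrays. All 3 also lost the call without knockout MI replicate 1 or 2, knockout sham replicate 2 or any 1 wild-type sham array. Actb lost it without knockout sham replicate 1 as well, Ppia without wild-type MI replicate 2, and Tuba1b without any array other than knockout sham replicate 1. In these fits the adjusted p was 0.052 to 0.112 for Actb, 0.0536 to 0.103 for Ppia and 0.0504 to 0.12 for Tuba1b in limma, and the differences stayed negative.

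Of the unnamed probes above, ASMM10P012959 passed this test (adjusted p 0.0345 in limma). It was well above background only on the knockout sham arrays, so its difference between both effects has no interpretable size. For 9 of the 15 genes the 95% interval of the knockout effect did not hold the wild-type estimate. B2m and Gusb were among them, with wild-type effects of 0.98 and 0.86, while their differences between both effects were not called. The count of 9 leaves out the error of the wild-type estimate, and its share over all probes was not computed. Gapdh had an effect of -0.47 in wild type, and its difference between both effects was 0.19 (95% interval -0.19 to 0.57).

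**Figure D5:**
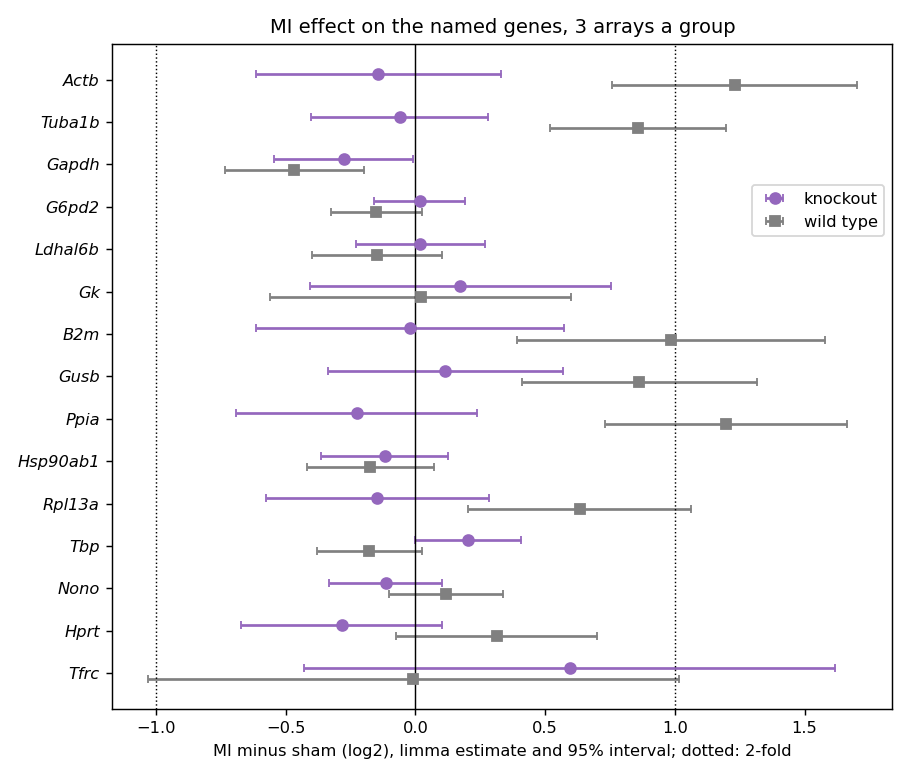
Points are the MI minus sham differences (log2) of the 15 named genes in the knockout and in wild type, 3 arrays a group, with 95% intervals from limma; dotted lines mark 2-fold. Every knockout interval except that of Gapdh includes 0 and every one except that of Tfrc lies within 2-fold, while the wild-type estimates of Actb and Ppia lie beyond 1.

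All wild-type MI arrays were on slide 1 and all wild-type sham arrays on slide 2, so surgery and slide cannot be told apart in wild type, and all wild-type mice were younger than the knockout mice. Among the groups, only knockout sham holds arrays of both slides. A slide term is therefore set by knockout sham replicate 1 against replicates 2 and 3. It does not separate surgery from slide in wild type. The count of 1943 was 4552 with slide as a term and 0 with age as a covariate, where 9664 probes had an unadjusted p under 0.05 in limma against 13635 without that term. It was 2, 0, 0 and 3134 without knockout MI replicate 1, knockout MI replicate 2, knockout sham replicate 2 and knockout sham replicate 3. Without wild-type sham replicates 1, 2 and 3 it was 1, 22 and 418. The split of signs moved with scaling, from 848 positive and 1095 negative to 594 and 327 under quantile normalization and 630 and 1446 under median centring.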

How the data were processed

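RNA from 12 left ventricles was hybridised to 1-colour arrays, 1 per mouse. RNA depleted of ribosomal RNA was labelled with Cy3 by random priming, per the labels' protocols. The authors deposited scanner output with a linear, background-subtracted intensity for each spot and other columns of quality flags, per the file headers. The submitters' processing notes name Agilent Feature Extraction 11.0.1.1. Processed values that the authors deposited are taken as log2 from their range and their correlation of at least 0.9988 with the log2 scanner signal. Their column medians were 6.91, their normalization is not given in the sources used, and the table lacked 88 tested probes.

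Outlier spots (35 to 66 per array) were set missing, the log2 signal was centred on the 75th percentile of the array's 61500 non-control spots, and spots of 1 probe were averaged. limma 3.58.1 (lmFit, eBayes, R 4.3.3) fitted a mean per group over all 12 arrays, with Benjamini-Hochberg adjustment over all tested probes. Single values went through two-sided exact permutation tests. The scripts were tested on simulated data. Figures were drawn with matplotlib 3.10.9.

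The members, lists and tests were chosen with earlier results of these data known. All 15 genes with an accession were named, by matching to RefSeq symbols (assembly GRCm38.p6), and at most 2 unnamed probes per direction, those with the smallest p. The planned lists of stress, fibrosis, metabolism, inflammation and cell type genes could not be applied, since no table used here names their probes. Miat was not analysed here. Alternatives covered scaling, background correction, filters on dim probes, eBayes options, array weights, samples in the fit, replicate number, slide, age and leaving out each array.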

Additional observations from a re-analysis of the deposited data

Results flagged for a closer look

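The difference between the MI effects of the 2 genotypes was called for 1943 probes in limma. For named genes, the knockout effect minus the wild-type effect was -1.37 for Actb, -1.42 for Ppia and -0.92 for Tuba1b, and for the unnamed probe ASMM10P012959 it was -1.24. That probe was well above background only on the knockout sham arrays, so its value has no interpretable size. The interaction was tested in each case, and each genotype's effect came from its own arrays. In wild type surgery and slide cannot be told apart, and all wild-type mice were younger than the knockout mice. The count of 1943 was 0 with age as a covariate and 0 to 3134 when leaving out 1 array.

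The control probe (+)E1A_r60_a107 lies outside the tested probes and is printed in 35 spots. It read 1.06, -1.01 and 0.90 on knockout MI replicates 1, 2 and 3 and -0.91, -0.66 and -0.75 on the knockout sham arrays, so the MI arrays of replicates 1 and 3 lay above every sham array and replicate 2 below them. The difference of 1.09 had an exact two-sided permutation p of 0.4. In wild type it read 0.52, 1.97 and -0.12 after MI and -0.42, -0.80 and -0.44 after sham surgery.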

How the results depend on the processing

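No named gene was called in the knockout under any of 29 alternatives. The count of called probes was 1 in the authors' values (ASMM10P022952) and 1 in the 6 knockout arrays alone, 3407 with array weights, and 0 to 2 over the fits that leave out 1 array each. The 4 unnamed probes kept their sign throughout, which their choice by small p and groups without overlap on these same arrays largely fixed in advance. They passed the threshold in 3, 2, 1 and 1 alternatives for ASMM10P042126, ASMM10P022952, ASMM10P012959 and ASMM10P028160. The first 3 entered the test only through their brighter group. With normexp correction the first 3 shrank to 0.481, 0.18 and -0.464. ASMM10P028160 was -0.694 there and shrank to -0.46 with quantile normalization. The median half-width ranged from 0.235 to 0.406 and the gap in array distance from 0.00268 to 0.0358.

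The number of probes with a difference between genotypes was 921 under quantile normalization, 919 in the authors' values, 4040 with normexp correction, 803 without a filter on dim probes, 10875 with array weights, 4552 with slide as a term, 0 with age as a covariate, and 0 to 3134 when leaving out 1 array. The slide term is set by knockout sham replicate 1 against the other knockout sham arrays. The cause of these changes in count was not tested.

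With the replicate number as a block, 0 probes were called in the knockout. The difference between both effects was called for 87 probes and for none of the 3 named genes. Deviations of same-numbered knockout arrays from their group means had correlations of 0.167, 0.0251 and -0.14. No test was run on these values, so whether such arrays share more than a number was not settled.

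Signs that turned, none of them called, were these. Under quantile normalization Tuba1b was 0.126, B2m 0.15, Gapdh 0.0428, G6pd2 -0.0188, Ldhal6b -0.0248, Hsp90ab1 0.0366 and Actb 0.0118. In the authors' values these genes were 0.126, 0.16, 0.0453, -0.0113, -0.0353, 0.0396 and 0.0137. G6pd2 and Ldhal6b were -0.0403 and -0.0369 with median centring and -0.0238 and -0.0254 with normexp, where B2m was 0.00702. With array weights B2m was 0.0565, Rpl13a 0.0113 and Ldhal6b -0.0808. With slide as a term and within slide 1, Gk was -0.178, Rpl13a 0.0618, Ldhal6b -0.0834 and Actb 0.0354, and Ldhal6b was -0.00899 with slide as a random block. With age as a covariate Tuba1b was 0.14 and B2m 0.176. Leaving out 1 array gave ranges of -0.185 to 0.022 for Tuba1b, -0.178 to 0.471 for Gk, -0.359 to 0.159 for B2m, -0.00939 to 0.0319 for G6pd2, -0.308 to 0.0618 for Rpl13a, -0.0303 to 0.278 for Gusb, -0.0834 to 0.0805 for Ldhal6b and -0.259 to 0.0354 for Actb.

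A test of the difference between genotypes within a slide was not run, since slide 1 holds no wild-type sham array. The log2 minimum of 1 changed 0 values. Dim probes have wider intervals, and 9215 probes were too dim to test.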
